A study of Arabidopsis thaliana with 4 samples.

Results

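Transcripts for the making of chlorophyll and heme, and for the regulators that turn plastids green, were followed in globular-stage embryos of Arabidopsis thaliana. The group holds 32 genes, taken by identifier from a fixed list: the enzymes from HEMA1 to CHLG and CAO, the POR genes, the ferrochelatases FC1 and FC2, the heme oxygenase HY1, the regulators FLU, GUN1, GUN4 and GUN5, and the transcription factors GLK1, GLK2, GNC and GNL. The tables have 27880 rows, and 31 of the 32 genes have a row of their own. FC1 shares its row with MIR860, a microRNA gene that lies within it, and that row is described separately. Of the 31, 29 had enough counts to be tested. PORA and GNL did not.

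Wild-type embryos were compared with serrate-1 (se-1) embryos, both in the Col (Columbia) ecotype background and both at the stage of 32 to 64 cells, with 2 libraries per genotype. The gene SERRATE (SE) encodes a zinc-finger partner of the nuclease DCL1 in cutting microRNAs from their precursors, with a part in splicing too, and the se-1 allele keeps some of its function. Plants stood in darkness at 4 °C for 4 days or more before growth on soil at 22 °C with days of 16 h of light and 8 h of dark. The labels do not say whether replicates came from separate plants, so p-values measure the spread between these libraries, which may be technical.

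Chlorophyll and heme share a trunk of reactions in the plastid. Glutamate bound to a tRNA is turned into aminolevulinic acid (ALA), and ALA is built up into protoporphyrin. There the path divides. Magnesium chelatase opens the branch to chlorophyll, and ferrochelatase makes heme. The intermediates of the chlorophyll branch produce reactive oxygen in light, and land plants hold them low by setting the rate of ALA synthesis. Arabidopsis embryos green during their development and lose chlorophyll as the seed matures.

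Total counts ranged from 18580516 to 20882004 per library, and a count of about 20 reads was thus close to 1 CPM, the unit of counts scaled to library size. The SE transcript stood at 69.4 and 71.1 CPM in se-1 and at 96.7 and 98.6 CPM in wild type. It was thus present in both genotypes, and its absence cannot be used to tell them apart. Across the transcriptome 72.3% of the genes tested differed between the genotypes (adjusted p under 0.05, edgeR quasi-likelihood test), 36.2% higher and 36.0% lower in se-1. Long transcripts were lower and short ones higher in se-1 as a general trend, so fold changes are also given after a correction for transcript length. SE itself had a log2 fold change of -0.48 (adjusted p = 2.9e-05, edgeR), or -0.19 after that correction. Of the 32 genes GUN5 had the longest transcript, at 4753 nt, against a median of 1729 nt over the group and 1741 nt over all genes tested. Of 7 embryo markers none was at 0 in any library, and their summed level was 955 to 1014 CPM in se-1 and 1218 to 1279 CPM in wild type. ATML1 alone was at 321 and 297 CPM in se-1 and at 536 and 558 CPM in wild type, and weighs heavily in that sum. Single markers moved apart, with WOX2, WOX9 and DRN higher (DRN 3.35-fold) and WOX8, ATML1 and ZLL lower (WOX8 2.89-fold). After length correction ATML1 and ZLL did not pass (log2 fold change -0.16 and -0.15), and LEC1 was lower (-0.46). None of 6 endosperm markers was at 0 either, with sums of 79.8 to 80.6 CPM in se-1 and 96.3 to 104 CPM in wild type. Within that sum PHE1 rose 7.45-fold and AGL62 2.25-fold, while FIS2 fell 5.93-fold and FWA and ZOU fell too. The 7 seed coat markers were likewise all detected and summed to 207 to 209 CPM in se-1 and 140.3 to 152 CPM in wild type. BAN alone was at 125 and 128 CPM in se-1 and at 86.8 and 80.1 CPM in wild type, and weighs heavily in that sum. Among the seed coat markers BAN, TT10, TT12 and TT1 rose and STK and MUM4 fell. With the length correction TT1 did not pass (log2 fold change 0.72), and GL2 was higher (0.33). Seed coat cells carry plastids of their own, and the part of these other tissues in the results was not tested. In such bulk samples, fewer cells of a type and less RNA per cell cannot be told apart.

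The genes of chlorophyll and heme synthesis did not move as a block. Of the 29 tested, 7 rose in se-1, 12 fell and 10 did not pass, so that 65.5% changed, against 72.3% of all genes tested. Their median log2 fold change was 0.00, as over all genes, and the median size of the log2 fold change was 0.24, against 0.56 over all genes. Of the 29, 3 rose by at least 1.5-fold (PORB, FLU and GLK1), where 24.7% of all genes did, and 6 fell by at least as much (GNC, HEMG1, CHLG, GUN5, HEME2 and DVR), where 22.0% of all genes did. The libraries of the genotypes did not overlap in CPM for 21 of the 29, against a background of 85.5%. Summed over the 31 rows, the level was 2247 and 2189 CPM in se-1 and 2274 and 2326 CPM in wild type. After length correction 6 rose and 10 fell, against backgrounds of 32.4% and 34.6%, or 67.0% in either direction. In that fit 4 rose and 5 fell by at least 1.5-fold, where 3652 and 3638 of 18529 genes did. GUN1 joined those that rose, and GUN5 left those that fell.

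**Figure D1:**
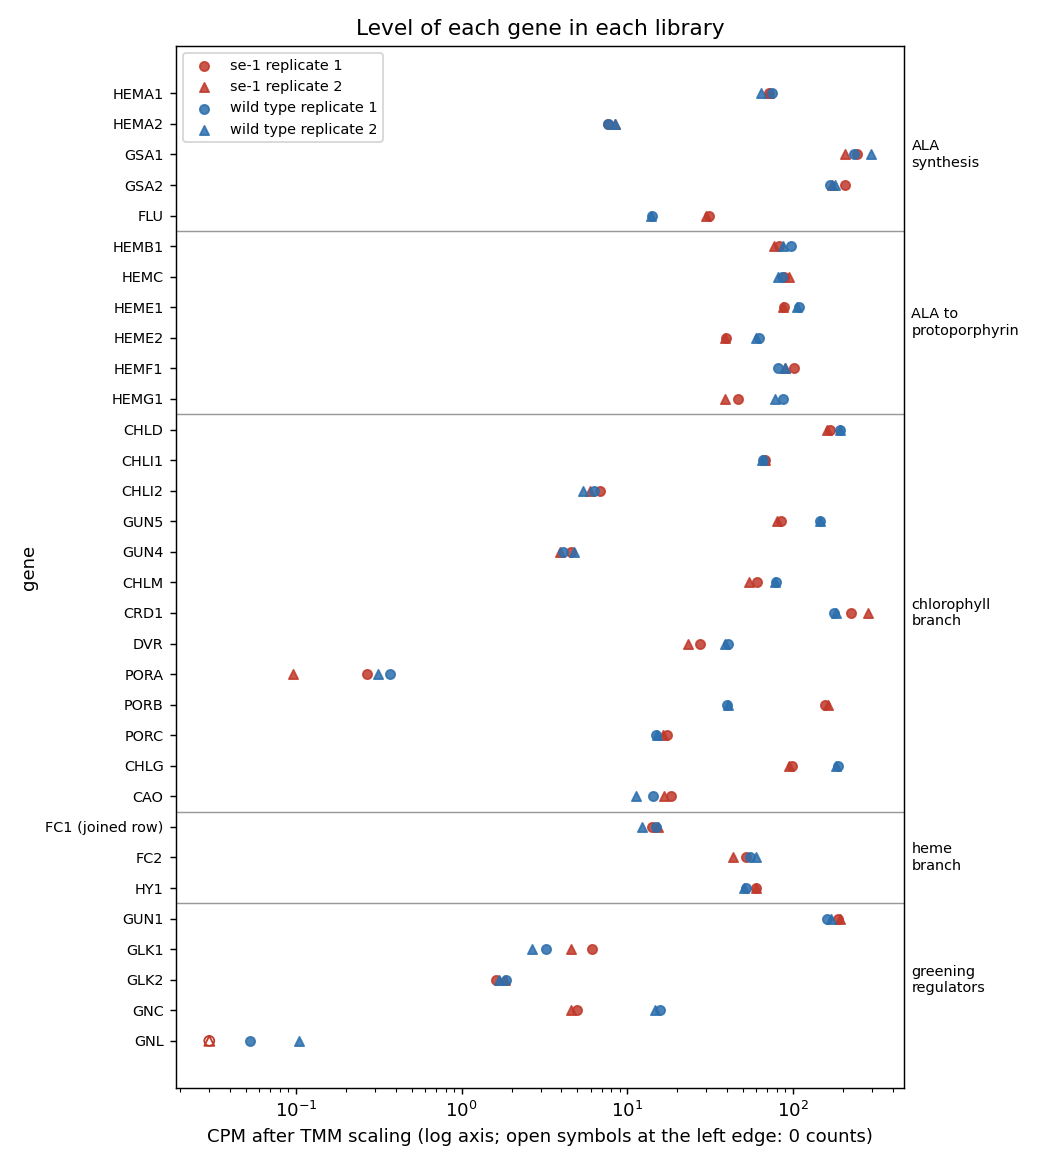
Level of each gene in each library, in CPM after TMM scaling on a log axis, with genes grouped by their place in the pathway; red symbols are se-1 and blue symbols wild type, circles replicate 1 and triangles replicate 2, and open symbols at the left edge are 0 counts. The genotypes stand well apart for PORB, FLU, GNC, CHLG and HEMG1. They overlap for HEMA1, HEMA2 and GLK2, and lie close together without overlap for CHLI1.

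Of the group's genes at the entry into the pathway, HEMA1 and HEMA2 were nearly level between genotypes, and the brake gene FLU was higher. HEMA1 (AT1G58290), the main glutamyl-tRNA reductase and the controlled step of ALA synthesis, stood at 71.5 and 71.4 CPM in se-1 and at 74.3 and 64.3 CPM in wild type. The se-1 values lie between those of wild type, and the log2 fold change of 0.04 (standard error 0.0865) did not pass (adjusted p = 0.658, edgeR). HEMA2, the second reductase gene, which is known from roots and other non-green tissue, was at 7.65 and 8.39 CPM in se-1 and at 7.64 and 8.42 CPM in wild type. Its groups coincide, with a log2 fold change of 0.00 (standard error 0.131).

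FLU (AT3G14110) encodes the protein that binds glutamyl-tRNA reductase and shuts down ALA synthesis in the dark. Its level was 31.2 and 29.7 CPM in se-1 and 14.1 and 13.9 CPM in wild type. Both se-1 libraries lie above both wild-type libraries, a 2.17-fold rise (log2 fold change 1.12, standard error 0.096, adjusted p = 6.2e-09, edgeR). After length correction the rise was 1.82-fold. Neither HEMA1 nor HEMA2 passed the test in that fit.

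Glutamate semialdehyde aminomutase, which finishes ALA, was the most abundant step per length in both genotypes. GSA1 (AT5G63570) was at 243 and 206 CPM in se-1 and at 234 and 296 CPM in wild type. These groups overlap, and the log2 fold change of -0.24 just passed (adjusted p = 0.0457, edgeR). It was -0.12 without se-1 replicate 2 and -0.06 without wild type replicate 2, and did not pass in either fit. With DESeq2, limma-voom or no filter on low counts GSA1 did not pass either. GSA2, its close copy, was at 206 and 171 CPM in se-1 and at 167 and 180.1 CPM in wild type, with a log2 fold change of 0.12 that did not pass. Without se-1 replicate 2 that of GSA2 was 0.25 and passed.

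From ALA to protoporphyrin 4 of 6 genes fell and none rose, so that 66.7% were called, against 72.3% of all genes, of which 36.0% fell. The largest of these falls was at the last step. HEMG1 (AT4G01690), protoporphyrinogen oxidase, which makes the protoporphyrin that both branches share and is the target of diphenyl ether herbicides, was at 46.8 and 39.1 CPM in se-1 and at 87.4 and 77.9 CPM in wild type. Its groups are far apart, with a 1.92-fold fall (log2 fold change -0.94, standard error 0.0955, adjusted p = 5.7e-08, edgeR) and a 2.05-fold fall after length correction. HEMG1 shares 121 nt with a gene on the opposite strand, AT4G01700, which rose (log2 fold change 1.5) at 67 to 224 counts a library.

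Uroporphyrinogen decarboxylase has 2 genes in plants, and both fell. HEME2 (AT2G40490) was at 39.2 and 38.9 CPM in se-1 and at 62.7 and 59.7 CPM in wild type, 1.57-fold lower (adjusted p = 1.3e-06, edgeR). HEME1 (AT3G14930) was at 88.2 and 86.6 CPM in se-1 and at 109 and 106 CPM in wild type, 1.23-fold lower (adjusted p = 0.00205, edgeR). For both genes the libraries of the genotypes do not overlap, and the falls were 1.69-fold and 1.23-fold after length correction.

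HEMB1 (AT1G69740), ALA dehydratase, had a smaller difference. It was at 81.8 and 76.7 CPM in se-1 and at 97.7 and 87.4 CPM in wild type, with a log2 fold change of -0.22 (adjusted p = 0.0236, edgeR). Without se-1 replicate 2 it was -0.17 and without wild type replicate 1 it was -0.14, and neither passed, nor did the gene pass with DESeq2 or with no filter. The remaining enzymes of the trunk did not pass. HEMC, porphobilinogen deaminase, had a log2 fold change of 0.12 (standard error 0.0816) and HEMF1, the plastid coproporphyrinogen oxidase also known as LIN2, one of 0.15 (standard error 0.0878). Without se-1 replicate 2 the value of HEMF1 was 0.25 and passed.

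**Figure D2:**
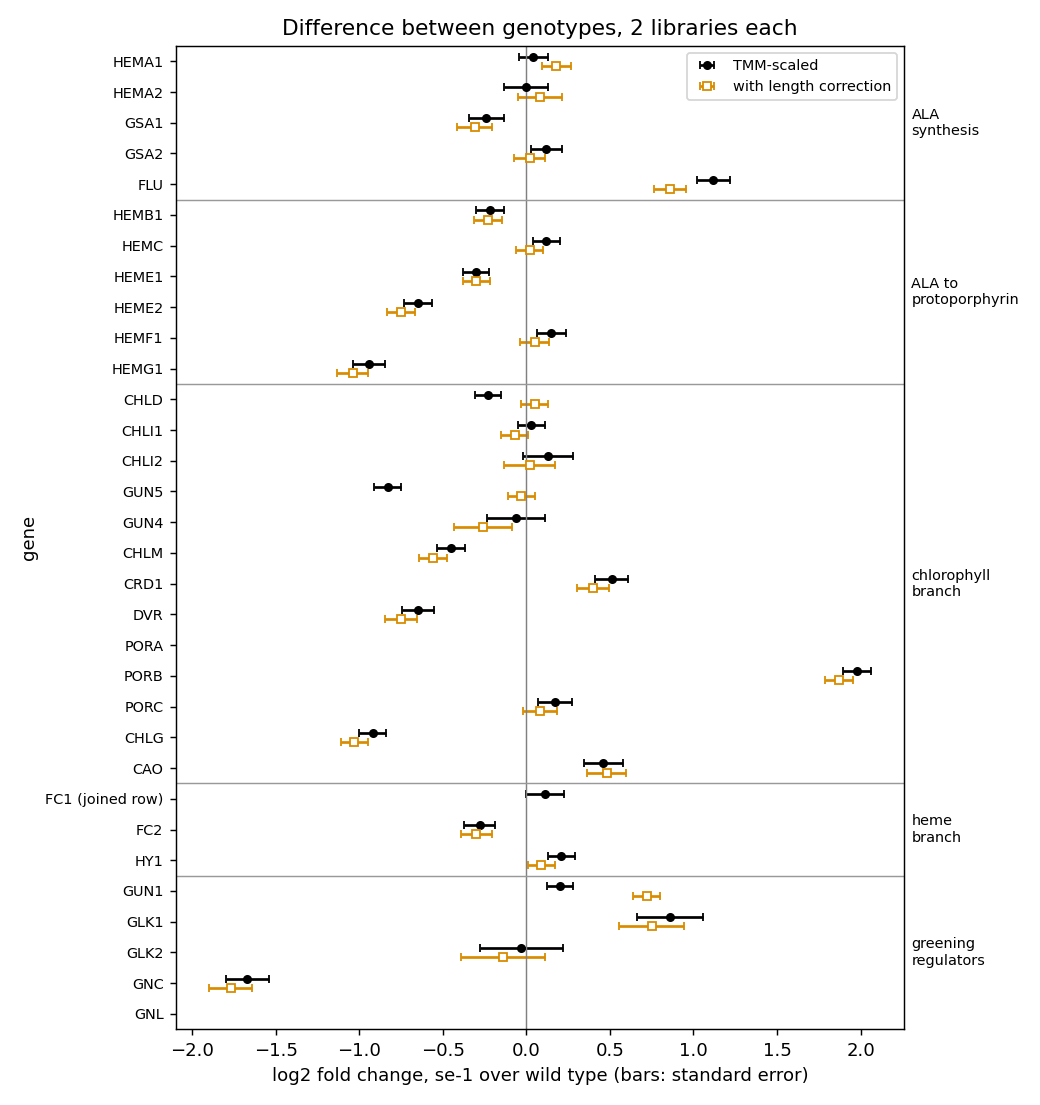
Log2 fold change of each gene, se-1 over wild type, with its standard error, from the TMM-scaled fit (filled circles) and after length correction (open squares); PORA and GNL were not tested, and the joined row of FC1 has no length-corrected value. PORB lies farthest to the right at 1.98 and GNC farthest to the left at -1.67, and GUN5 is the gene whose value moves most with the correction, from -0.83 to -0.03.

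In the chlorophyll branch 3 of 12 tested genes rose, 5 fell and 4 did not pass, and the summed level of its genes was 932 and 971 CPM in se-1 and 966 and 961 CPM in wild type. Of all genes, 72.3% were called, against 66.7% of these 12. After length correction 3 rose, 3 fell and 6 did not pass, where 67.0% of all genes were called. Magnesium chelatase, which inserts magnesium into protoporphyrin, has the subunits I, D and H. CHLI1 (AT4G18480), the main I subunit, was at 67.4 and 67.4 CPM in se-1 and at 66.3 and 65.3 CPM in wild type, a log2 fold change of 0.03 (standard error 0.0799) that did not pass. CHLI2, the minor I subunit, did not pass either, at 5.39 to 6.85 CPM over the 4 libraries.

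GUN5 (AT5G13630) encodes the large H subunit, which binds the porphyrin. It was at 84.4 and 79.7 CPM in se-1 and at 145 and 146 CPM in wild type. The groups are far apart and the fall was 1.77-fold (log2 fold change -0.83, standard error 0.0797, adjusted p = 3.0e-08, edgeR). After length correction the log2 fold change was -0.03 (adjusted p = 0.731), close to 0 against transcripts of like length. CHLD (AT1G08520), the D subunit, was at 168 and 161 CPM in se-1 and at 193 and 193 CPM in wild type. Its log2 fold change of -0.23 passed (adjusted p = 0.0134, edgeR), but not when se-1 replicate 2 (-0.19), wild type replicate 1 (-0.23) or wild type replicate 2 (-0.23) was left out, and it was 0.05 after length correction. GUN4, the porphyrin-binding protein that stimulates the chelatase, was at 4.60 and 3.93 CPM in se-1 and at 4.11 and 4.76 CPM in wild type and did not pass. GUN4 shares 946 nt of its length with AT3G59410 on the opposite strand, which fell (log2 fold change -0.89), and without a known strand setting their reads cannot be told apart.

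The next 3 steps went in different directions. CHLM (AT4G25080), the methyltransferase that acts on magnesium protoporphyrin, was at 60.6 and 54.1 CPM in se-1 and at 78.9 and 77.5 CPM in wild type, 1.36-fold lower (adjusted p = 1.1e-04, edgeR). DVR (AT5G18660), the divinyl reductase, was at 27.4 and 23.2 CPM in se-1 and at 40.4 and 38.7 CPM in wild type, 1.57-fold lower (adjusted p = 6.7e-06, edgeR). In contrast, CRD1 (AT3G56940), the iron-containing subunit of the cyclase that closes the fifth ring of chlorophyll, was higher. CRD1 stood at 223 and 285 CPM in se-1 and at 177 and 181 CPM in wild type, 1.42-fold higher (standard error of the log2 fold change 0.0982, adjusted p = 1.5e-04, edgeR). The se-1 libraries differ from each other more than the wild-type libraries do, and the log2 fold change lay between 0.32 and 0.68 when each library was left out in turn. These 3 differences had the same sign and passed after length correction.

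Protochlorophyllide oxidoreductase (POR), the light-dependent enzyme that turns protochlorophyllide into chlorophyllide, showed the largest rise of the group. PORB (AT4G27440) was at 155 and 163 CPM in se-1 and at 40.2 and 40.6 CPM in wild type. The libraries of each genotype lie close together and nearly 4-fold apart from the other genotype, with a 3.94-fold rise (log2 fold change 1.98, standard error 0.0835, adjusted p = 3.9e-13, edgeR). The rise was 3.66-fold after length correction and its log2 value stayed between 1.95 and 2.02 when any library was left out. PORB overlaps 71 nt of AT4G27450 on the opposite strand, a gene with 132 to 332 counts a library that also rose (log2 fold change 1.19).

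The other POR genes did not pass or were not tested. PORC (AT1G03630), the isoform known from light-grown green tissue, was at 17.4 and 16.4 CPM in se-1 and at 14.8 and 15.1 CPM in wild type, a log2 fold change of 0.17 (standard error 0.102, adjusted p = 0.134, edgeR) that did not pass. PORA (AT5G54190), the isoform of dark-grown seedlings, had 5 and 2 counts in the se-1 libraries and 7 and 6 in the wild-type libraries. The ratio of its summed counts was 0.522, with an exact 95% interval of 0.176 to 1.41 that covers counting error only. Per length, PORB made up 90.5% and 91.5% of POR reads in se-1 and 74.2% and 74.1% in wild type, and PORC 9.31% and 8.43% against 25.1% and 25.3%. The log2 ratio of PORC to PORB counts was -3.16 and -3.32 in se-1 and -1.44 and -1.43 in wild type. These groups do not overlap, and the exact two-sided permutation test gave p = 0.333, the smallest that 2 against 2 libraries allow. The annotated transcripts of PORA and PORB have no run of 50 nt in common, with 48 nt as the longest, so reads of usual length can mostly be told apart, though how reads with several mapping positions were counted is not given in the sources used here.

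**Figure D3:**
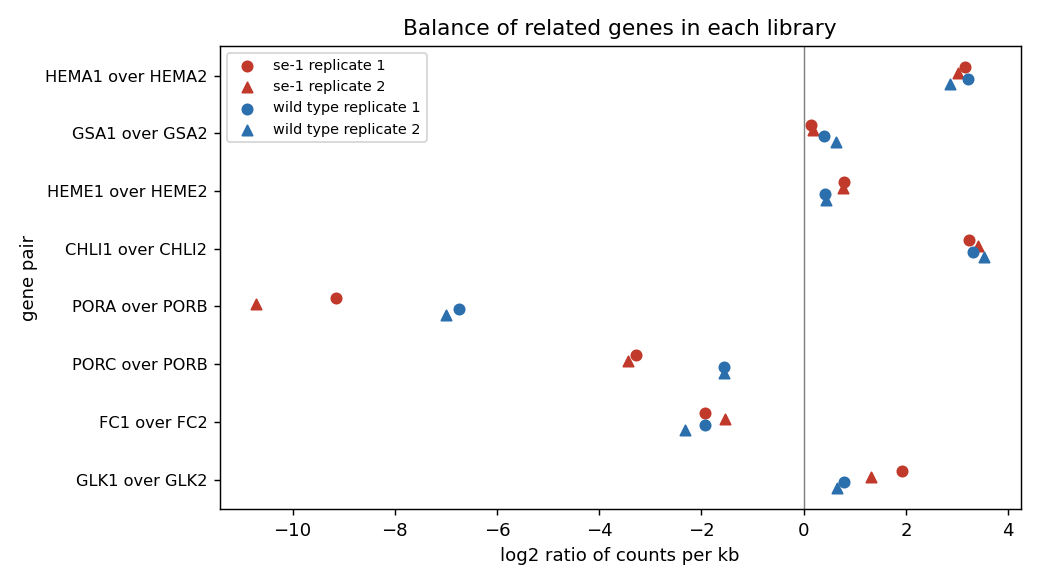
Log2 ratio of counts per kb of transcript for pairs of related genes in each library, red for se-1 and blue for wild type, circles for replicate 1 and triangles for replicate 2. The ratio of PORC to PORB lies at -3.28 and -3.44 in se-1 against -1.56 and -1.55 in wild type, while those of HEMA1 to HEMA2 and of CHLI1 to CHLI2 overlap between genotypes; PORA rests on 2 to 7 counts a library.

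The stretches before the annotated starts of PORA and PORB are shown because the genes encode the same enzyme and differed most in level. They come from the RefSeq annotation of TAIR10.1, read 5′ to 3′ on the strand of the gene up to the base before its start, and leave out bases that another annotated gene covers. Capitals mark the motifs found, CCAATC (bound by GLK factors) or GATAAG (the I-box), on either strand.
PORA, chr5:21992815-21993064, minus strand: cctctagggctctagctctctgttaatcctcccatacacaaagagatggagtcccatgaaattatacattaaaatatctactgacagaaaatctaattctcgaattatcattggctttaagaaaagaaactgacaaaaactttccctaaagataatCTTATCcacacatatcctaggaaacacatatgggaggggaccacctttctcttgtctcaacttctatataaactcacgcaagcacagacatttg
PORB, chr4:13725360-13725545, plus strand: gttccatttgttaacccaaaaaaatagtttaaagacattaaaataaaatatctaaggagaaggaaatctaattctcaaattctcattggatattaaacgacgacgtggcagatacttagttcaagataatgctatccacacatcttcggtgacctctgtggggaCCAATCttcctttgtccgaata
PORB holds CCAATC with its first base 22 bases before the start, and a second copy farther from the start lies in bases that AT4G27435 covers and is not printed. PORA holds the I-box on its opposite strand with its first base 94 bases before the start. The longest run the stretches share is aaatctaattctc, of 13 bases, which begins 162 bases before the start of PORA and 123 bases before that of PORB.

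The last steps of the branch again went in opposite directions. CHLG (AT3G51820), chlorophyll synthase, which attaches the phytyl tail, was at 99.0 and 95.1 CPM in se-1 and at 186 and 182 CPM in wild type. It fell 1.90-fold with no overlap (log2 fold change -0.92, standard error 0.0793, adjusted p = 6.3e-09, edgeR), or 2.04-fold after length correction. Levels per length are given as TPM, counts per kb of transcript scaled to the same total in each library. CHLG was at 84.8 and 80.4 TPM in se-1 and at 177 and 169 TPM in wild type, whereas the summed POR genes were at 155 and 159 TPM in se-1 and at 54.3 and 53.5 TPM in wild type. The order of these successive steps was thus reversed between genotypes, with CHLG above POR in both wild-type libraries and below it in both se-1 libraries. CAO (AT1G44446), the oxygenase that makes chlorophyll b, was at 18.4 and 16.6 CPM in se-1 and at 14.2 and 11.3 CPM in wild type, 1.37-fold higher (adjusted p = 0.00196, edgeR), and 1.40-fold higher after length correction. Its log2 fold change lay between 0.30 and 0.62 when each library was left out, always past the threshold.

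**Figure D4:**
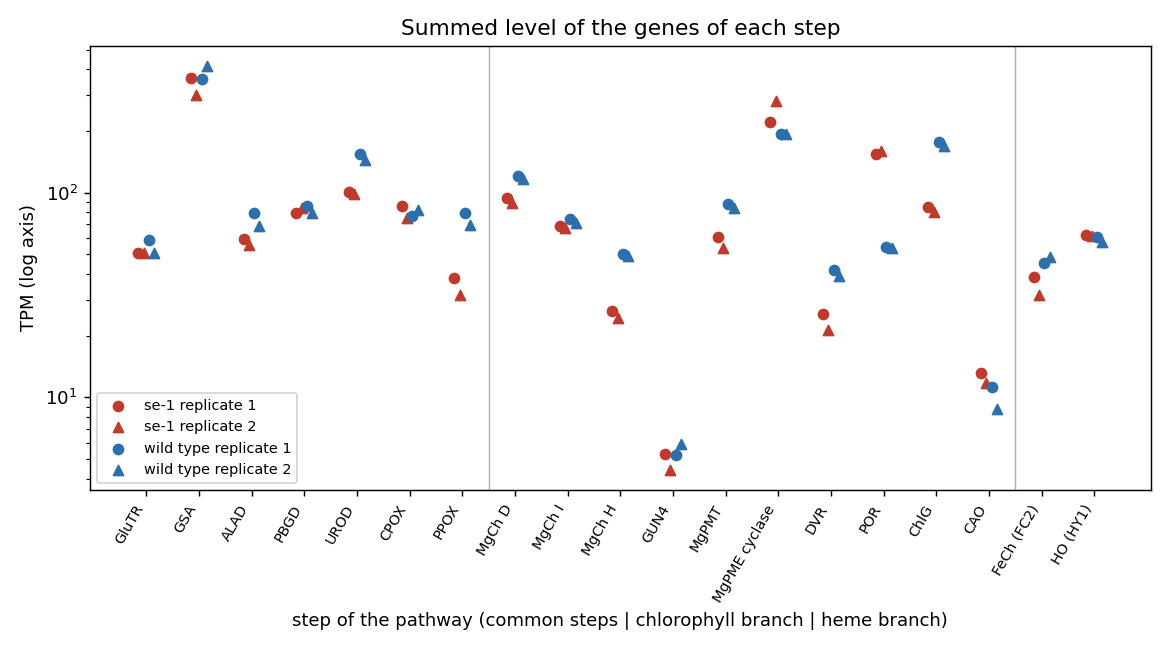
Summed level of the group's genes for each step along the pathway, in TPM on a log axis, red for se-1 and blue for wild type. Vertical lines divide the trunk, the chlorophyll branch and the heme branch. Genes outside the group, such as HEMG2, HEMF2, HO2, HEMD and CHLP, and the joined row of FC1 are left out. Between genotypes POR moves from the 14th to the 3rd highest of the 19 steps drawn. Among these, GSA and the MgPME cyclase (CRD1) stay the highest and GUN4 and CAO the lowest.

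Compared per length, the steps covered a wide range within each genotype. In wild type the aminomutase genes summed to 387 ± 39.6 TPM (SD, n = 2), CRD1 to 194 ± 0.0256 and CHLG to 173 ± 5.96. At the other end CAO was at 9.94 ± 1.74 and GUN4 at 5.55 ± 0.472. The chelatase subunits were at 118 ± 2.25 for D, 72.7 ± 2.77 for I and 49.7 ± 0.776 for H in wild type, and at 91.5 ± 3.68, 67.8 ± 1.15 and 25.4 ± 1.23 in se-1. The order D, I, H was the same in both genotypes, and the values of neighbours in it did not overlap. In se-1 the aminomutase genes were at 363 and 301 TPM, CRD1 at 221 and 279 TPM and POR at 155 and 159 TPM. The values of these 3 steps do not overlap, though the libraries of the aminomutase genes and of CRD1 lie far apart. These levels carry the length trend between genotypes, which limits their use to compare genotypes. Whether transcript length also affects the order of steps within a genotype was not tested.

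The CRD1 and CAO promoters are shown because both genes rose and both hold the G-box CACGTG, a motif bound by light-signalling bZIP and bHLH factors (capitals, TAIR10.1, 5′ to 3′ on the strand of the gene, ending at the base before the start).
CRD1, chr3:21076316-21076504, plus strand: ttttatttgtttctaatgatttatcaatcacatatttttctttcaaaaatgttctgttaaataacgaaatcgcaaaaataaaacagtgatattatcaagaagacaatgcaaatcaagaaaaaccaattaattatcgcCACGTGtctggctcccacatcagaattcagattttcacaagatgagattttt
CAO, chr1:16851272-16851521, minus strand: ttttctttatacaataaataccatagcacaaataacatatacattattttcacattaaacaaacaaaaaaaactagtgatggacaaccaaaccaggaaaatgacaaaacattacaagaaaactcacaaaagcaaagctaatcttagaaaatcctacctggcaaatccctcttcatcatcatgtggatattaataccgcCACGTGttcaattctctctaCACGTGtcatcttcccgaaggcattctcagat
In windows of 250 bases before the start, the G-box was found in 3 of the 32 genes (9.38%), against 6.49% of 27443 protein-coding genes, on either strand. The third was FC2, which fell. CCAATC was also found in 3 (9.38%, against 10.2%), in GSA2, GUN4 and PORB, and GATAAG in 3 (9.38%, against 12.3%), in HEMF1, PORA and GLK1. CACGCGC, the motif of the light-signalling factors FHY3 and FAR1, was in none, against 1.06%. These shares are near the background. Of the genes with CCAATC, PORB rose and GSA2 and GUN4 did not pass, and of those with GATAAG, GLK1 rose, HEMF1 did not pass and PORA was not tested.

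In the heme branch, FC2 and HY1 were the group's tested genes with a row of their own. Both were called, where 72.3% of all genes were, and neither differed by 1.5-fold. Genes outside the group, such as HO2, are not covered by this. FC2 (AT2G30390), the ferrochelatase of green tissue, was at 51.7 and 43.2 CPM in se-1 and at 54.9 and 59.9 CPM in wild type. Its log2 fold change of -0.28 passed (adjusted p = 0.0135, edgeR), but was -0.15 without se-1 replicate 2 and -0.22 without wild type replicate 2, where it did not pass, and it did not pass with DESeq2 or with no filter. The joined row of FC1 (AT5G26030), the ferrochelatase also found in roots, and MIR860 was at 14.0 and 15.3 CPM in se-1 and at 14.9 and 12.3 CPM in wild type. It did not pass (log2 fold change 0.11, standard error 0.115, adjusted p = 0.412, edgeR). The MIR860 hairpin has 126 nt, of which 53 to 126 nt lie in annotated exons of FC1 depending on the transcript model, and the counts do not separate both loci.

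HY1 (AT2G26670), the heme oxygenase that opens heme on the way to the phytochrome chromophore, was at 59.4 and 59.6 CPM in se-1 and at 52.0 and 50.9 CPM in wild type. The groups do not overlap, and the log2 fold change of 0.21 passed (adjusted p = 0.0269, edgeR). It did not pass with any of the 4 libraries left out, with values of 0.19 to 0.22, nor with DESeq2 or after length correction (0.09).

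Among the regulators, GLK1 rose and GNC fell. GLK1 (AT2G20570) and GLK2 encode related activators of antenna and chlorophyll synthesis genes. GLK1 was at 6.16 and 4.55 CPM in se-1 and at 3.21 and 2.67 CPM in wild type, a 1.81-fold rise without overlap (log2 fold change 0.86, standard error 0.195, adjusted p = 6.9e-04, edgeR) and 1.68-fold after length correction. GLK2 was at 1.61 and 1.82 CPM in se-1 and at 1.84 and 1.67 CPM in wild type and did not pass (log2 fold change -0.03, standard error 0.249). Per length GLK1 made up 79.1% and 71.2% of the pair in se-1 and 63.3% and 61.2% in wild type (exact permutation p = 0.333, the smallest possible).

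GNC (AT5G56860), a GATA factor that promotes greening and responds to nitrate and cytokinin, had the largest fall of the group. It was at 4.98 and 4.55 CPM in se-1 and at 15.8 and 14.6 CPM in wild type. All se-1 values are below a level of 5 CPM and all wild-type values above 14 CPM, a 3.19-fold fall (log2 fold change -1.67, standard error 0.128, adjusted p = 1.3e-09, edgeR), or 3.41-fold after length correction. GNL (AT4G26150), its paralog, had no count in se-1 and 1 and 2 counts in wild type, too few for a fold change. GNC holds none of the 4 motifs searched, and neither do FLU, HY1 and GUN1, which rose. Its promoter is shown because GNC had the largest fall of the group (TAIR10.1, 5′ to 3′ on the strand of the gene).
GNC, chr5:22991531-22991780, minus strand: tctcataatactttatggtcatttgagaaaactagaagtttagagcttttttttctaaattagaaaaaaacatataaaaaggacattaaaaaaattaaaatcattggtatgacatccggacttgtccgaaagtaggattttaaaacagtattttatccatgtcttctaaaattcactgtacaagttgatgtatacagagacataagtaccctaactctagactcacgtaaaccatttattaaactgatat

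GUN1 (AT2G31400), the pentatricopeptide repeat protein through which plastids signal to the nucleus, was abundant and slightly higher. It was at 186 and 192 CPM in se-1 and at 159.7 and 169 CPM in wild type, without overlap (log2 fold change 0.20, adjusted p = 0.0284, edgeR). Without se-1 replicate 2, wild type replicate 1 or wild type replicate 2 the value was 0.18, 0.16 or 0.24 and did not pass. GUN1 has a long transcript of 3342 nt, and after length correction its rise was larger, at 0.72 (adjusted p = 1.8e-07).

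Other genes of tetrapyrrole synthesis were all called, 7 higher and 7 lower of 14 tested, or 6 and 6 after length correction. Over all genes 72.3% were called. After length correction 67.0% were, against 85.7% of these 14 genes. LCAA, a further subunit of the cyclase that CRD1 belongs to, rose 1.80-fold from 9.74 and 10.6 to 17.6 and 19.1 CPM (adjusted p = 1.4e-06, edgeR). UPM1, which leads uroporphyrinogen into siroheme, rose 1.49-fold, and HO2, a relative of HY1, rose 1.45-fold. The rises of LCAA, UPM1 and HO2 were 1.36-fold, 1.78-fold and 1.35-fold after length correction. GLURS, the plastid glutamyl-tRNA synthetase that supplies the first substrate, fell 2.13-fold, from 14.4 and 17.0 to 7.23 and 7.48 CPM (adjusted p = 2.4e-07, edgeR). CHLP, the reductase that makes the phytyl tail used by CHLG, fell 1.36-fold, from 384 and 394 to 307 and 264 CPM. HEMG2, the relative of HEMG1, fell 1.43-fold, but did not pass after length correction (log2 fold change -0.18). CHLP shares 414 nt, LCAA 211 nt and UPM1 203 nt with a counted gene on the opposite strand. HEMG2 shares 228 nt with a counted gene on the same strand.

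In the chlorophyll b cycle and chlorophyll breakdown, 1 of 10 tested genes rose, 5 fell and 4 did not pass, with a median log2 fold change of -0.20. Of all genes, 72.3% were called, 36.2% higher and 36.0% lower. SGRL, a relative of the STAY-GREEN proteins that remove magnesium from chlorophyll, fell 1.89-fold, from 133 and 131 to 69.7 and 69.5 CPM (adjusted p = 6.3e-09, edgeR). CLH1, a chlorophyllase, fell 2.10-fold. The chlorophyll b reductase genes parted, with NYC1 1.34-fold lower and NOL 1.55-fold higher. All 4 differences passed with the same sign after length correction.

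Of 17 tested genes of light signalling 3 rose, 8 fell and 6 did not pass, or 5, 8 and 4 after length correction. The shares called were 64.7% and 76.5%, against 72.3% and 67.0% of all genes. The 3 that rose are phytochrome-interacting factors, bHLH proteins that bind G-boxes and of which PIF1 and PIF3 hold back chlorophyll synthesis in the dark. PIF5 was at 2.09 and 2.40 CPM in se-1 and at 0.421 and 0.262 CPM in wild type, 6.49-fold higher (standard error of the log2 fold change 0.345, adjusted p = 1.2e-06, edgeR). PIF4 rose 3.57-fold from 0.316 and 0.157 CPM, though not with DESeq2, and PIF3 rose 1.28-fold to 31.7 and 35.5 CPM. PIF1 did not pass (log2 fold change 0.07, standard error 0.164), and it shares 334 nt with a counted gene on the opposite strand.

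The red-light receptor gene PHYB fell 2.95-fold, from 72.4 and 66.4 to 24.6 and 22.4 CPM (adjusted p = 3.2e-11, edgeR). SPA1, a partner of the COP1 ubiquitin ligase, fell 2.63-fold and PTM, a PHD-domain protein of the plastid envelope, 2.21-fold. These are long transcripts of 4103 to 6028 nt. After length correction PHYB was 1.75-fold, SPA1 1.63-fold and PTM 1.15-fold lower.

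The other B-class GATA genes, relatives of GNC and GNL, gave 2 rises and 1 fall among 4 tested, or 1 rise and 2 falls after length correction. That is 75.0% called in both fits, against 72.3% and 67.0% of all genes. GATA16 rose 1.91-fold from 19.2 and 22.0 CPM, or 1.23-fold after the correction. GATA15 fell 1.70-fold to 8.94 and 7.33 CPM, or 2.55-fold after it. GATA17 rose 1.5-fold and did not pass after the correction (log2 fold change 0.03).

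**Figure D5:**
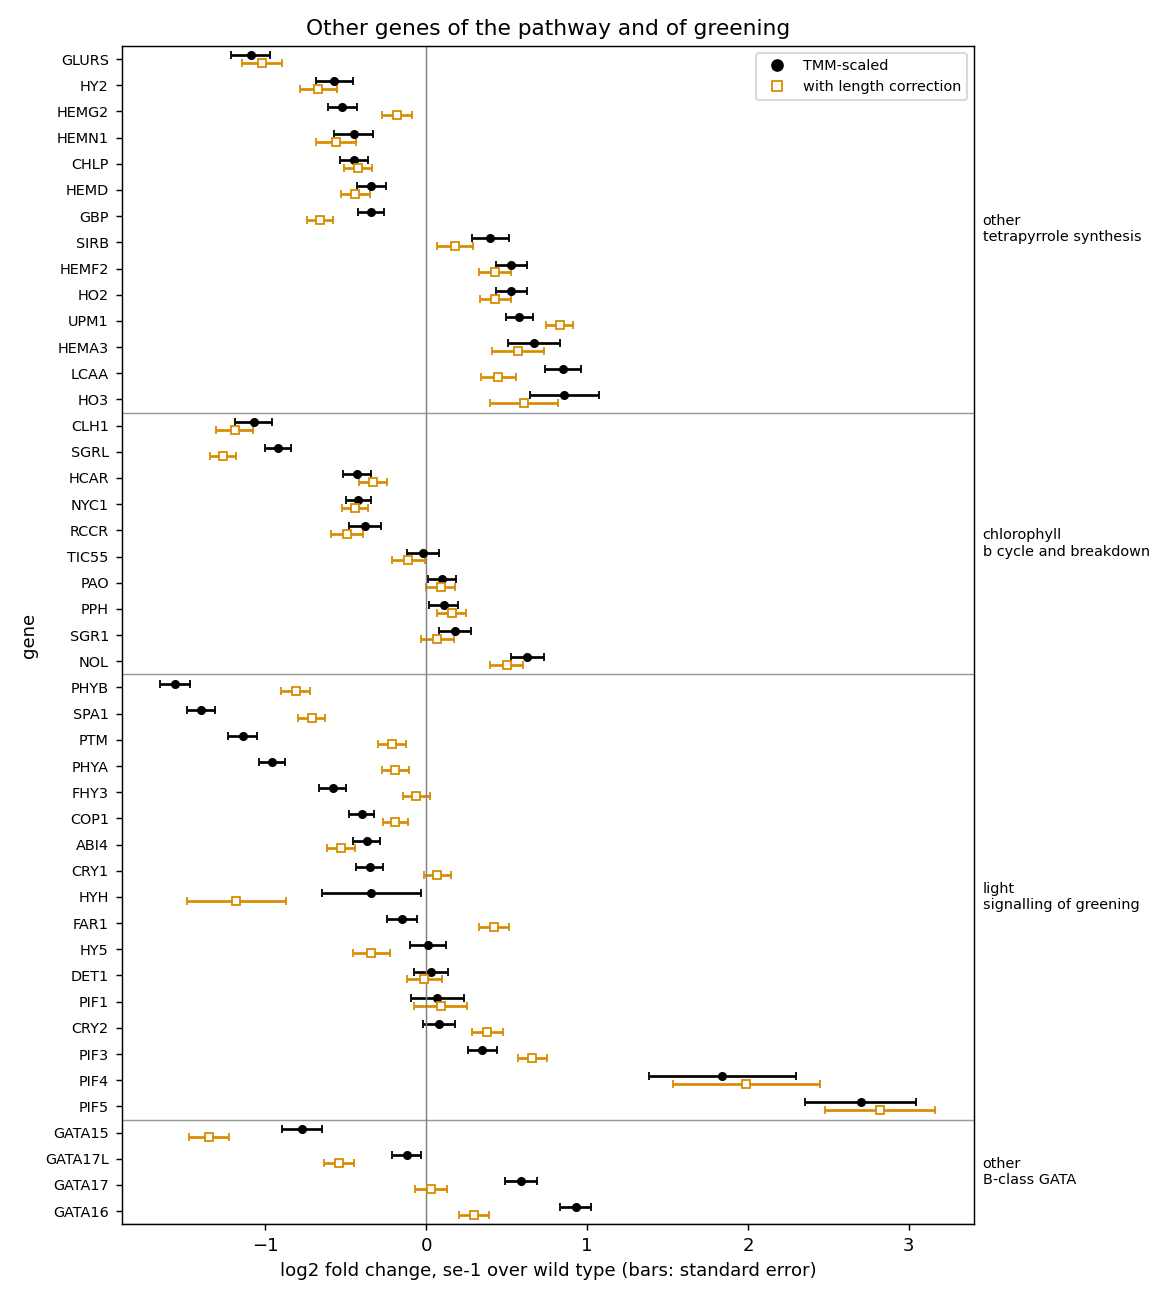
Log2 fold change, se-1 over wild type, with its standard error for the tested genes of the other pathway, light-signalling and GATA lists, tissue markers left out, from the TMM-scaled fit (filled circles) and after length correction (open squares). Among the genes plotted, PIF5 and PIF4 lie farthest to the right at 2.70 and 1.84, and PHYB and SPA1 farthest to the left at -1.56 and -1.40, moving to -0.81 and -0.71 with the correction.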

How the data were processed

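The authors deposited raw counts per gene, with no normalization, in a table per library. Tools listed in the submitters' processing notes, with no role or order, are featureCounts, Cufflinks 2.2.1, HISAT2 2.0.5 and FastQC 0.11.5, and the build is TAIR10. No source used here gives the annotation release or the strand setting, so reads of overlapping genes on opposite strands cannot be told apart. Per the labels' protocols, RNA was amplified before library preparation.

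The genotypes were compared by the two-sided quasi-likelihood test of edgeR 4.0.16 (R 4.3.3) after filterByExpr and TMM scaling, with Benjamini-Hochberg adjustment over 18714 genes at 0.05. The standard error is the log2 fold change over the square root of F. CPM are TMM-scaled. Counts per kb use the longest annotated transcript (RefSeq, TAIR10.1). The length correction adds offsets from a spline with 6 degrees of freedom on log2 length (18529 genes). The fit was tested on simulated data. DESeq2 1.42.0 and limma 3.58.1 (voom) served as alternatives. Chi-square per degree of freedom was 4.10 between the wild-type replicates and 5.87 between those of se-1, above sampling noise.

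The members and lists were chosen with earlier results of these data known. All 32 members may be named, and of each other list at most 3 genes each way with the smallest adjusted p. Marker genes and neighbours are named beside the results they touch. PIF1, which did not pass, is given outside this rule, and some other genes are named for context without values.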

Additional observations from a re-analysis of the deposited data

How the results depend on the processing

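Of the 19 genes called, 12 kept their sign and their call under every alternative, 5 higher (FLU, CRD1, PORB, CAO and GLK1) and 7 lower (HEME1, HEME2, HEMG1, CHLM, DVR, CHLG and GNC). The other 7, GSA1, HEMB1, CHLD, GUN5, FC2, HY1 and GUN1, lost the call under at least 1. The count of genes called was 14 to 18 with a library left out, 15 with DESeq2, 16 with no filter, 16 after length correction and 19 with the replicate block. The number shared by a library of each genotype was not used to pair them (correlation of their deviations 0.0291), and the block gave 13683 calls over all genes against 13523. Signs turned only for values near 0: HEMA2 was at 0.00 with DESeq2 size factors, with DESeq2 and with the block, and after length correction CHLD was at 0.05 and CHLI1 at -0.07. With a library left out HEMA1 ranged from -0.06 to 0.15, HEMA2 from -0.07 to 0.07, GSA2 from -0.02 to 0.25, GUN4 from -0.17 to 0.06, the row of FC1 from -0.02 to 0.24 and GLK2 from -0.13 to 0.06. Low counts limit PORA, GNL, GLK2, PIF4 and PIF5. The wild-type libraries held 8 and 5 counts of PIF5. The cause of the length trend was not tested.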
